A study of Caenorhabditis elegans with 10 samples.

Results

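The comparison described here set wdr-23 mutant worms against N2, the laboratory wild type of Caenorhabditis elegans, with both strains fed bacteria that carried a control RNAi plasmid. It used 7 of the 10 arrays of the study: the 4 titled as wdr-23 mutant with control RNAi and the 3 titled as N2 with control RNAi. The other 3 arrays held the same mutant fed skn-1 RNAi bacteria, and they entered the model only as another group that helped to estimate the spread. Every probe set of the Affymetrix C. elegans array was taken except the 77 controls, which left 22548 of 22625. The allele is spelled tm1817 in the study's design and tm1718 in the sample labels, and nothing here settles which spelling is right. No other mutation or transgene is named for either strain. Animals were grown from a synchronised first larval stage until most had reached the fourth (L4), on agar plates holding lactose at 0.2% and the antibiotic carbenicillin at 50 ug/ml. Each array came from total RNA of 200 to 500 whole, pooled worms, and the arrays are titled as biological replicates.

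The WD-repeat protein WDR-23 sits in the cell nucleus, binds the transcription factor SKN-1 and hands it to a ubiquitin ligase built on the cullin CUL-4 and its adaptor DDB-1. SKN-1 is related to the mammalian Nrf factors. In the intestine it switches on enzymes that join glutathione, sugars and other groups to foreign or oxidised molecules, and loss of wdr-23 is known to leave more SKN-1 in the nucleus and to raise such genes. The comparison shows which genes differ between worms with and without a working WDR-23 when SKN-1 has not been lowered by RNAi.

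Signals ran from 0.0533 to 25046, in the unit of the array software, and the medians of the 7 arrays were 113 to 139.7. Across probe sets the arrays of a strain correlated at 0.981 to 0.986 and arrays of different strains at 0.942 to 0.953, so arrays of one strain were more alike than arrays of different strains. A change is given below as a log2 difference, mutant minus N2, after 19 was added to every signal, so a log2 change of 1 is 2-fold and the changes of dim genes are understated. A gene is called where the adjusted p from limma, corrected over all probe sets tested, was under 0.05. Genes with several probe sets are given by the brightest.

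Of 12061 genes bright enough to test, 3502 were called, which is 29.0%. Of these 2273 were higher in the mutant (18.8%) and 1229 lower (10.2%). Large changes went mostly up: 491 genes were called at least 2-fold higher, 4.07% of those tested, against 101 at least 2-fold lower, 0.837%. At 4-fold the counts were 125 and 20, at 8-fold 58 and 7, at 16-fold 28 and 3, and at 32-fold 15 and 0. RNA came from whole animals, so for any of these genes a change in the number of cells of a type and a change in RNA per cell cannot be told apart. The 3 genes past 16-fold on the lower side were K06H6.2, Y41C4A.32 and cTel55X.1. How the arrays are brought to one level matters for the small changes: the median log2 change over all genes was 0.03 as deposited, moved by -0.11 with quantile normalization and by -0.20 when each array was centred on its median. Under all 3 scalings 1320 genes stayed called higher (10.9%) and 1073 lower (8.9%), and for some lists below the counts are also given in that form. Counts of the other lists are as deposited only, and many of them shrink under all 3 scalings. For example, the calls higher went from 15 to 7 among 50 ABC transporters and from 10 to 5 among 23 osmolyte genes. Counted by probe set, 2754 were higher (17.4%) and 1590 lower (10.1%), with 583 (3.69%) and 131 (0.83%) at least 2-fold.

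**Figure D1:**
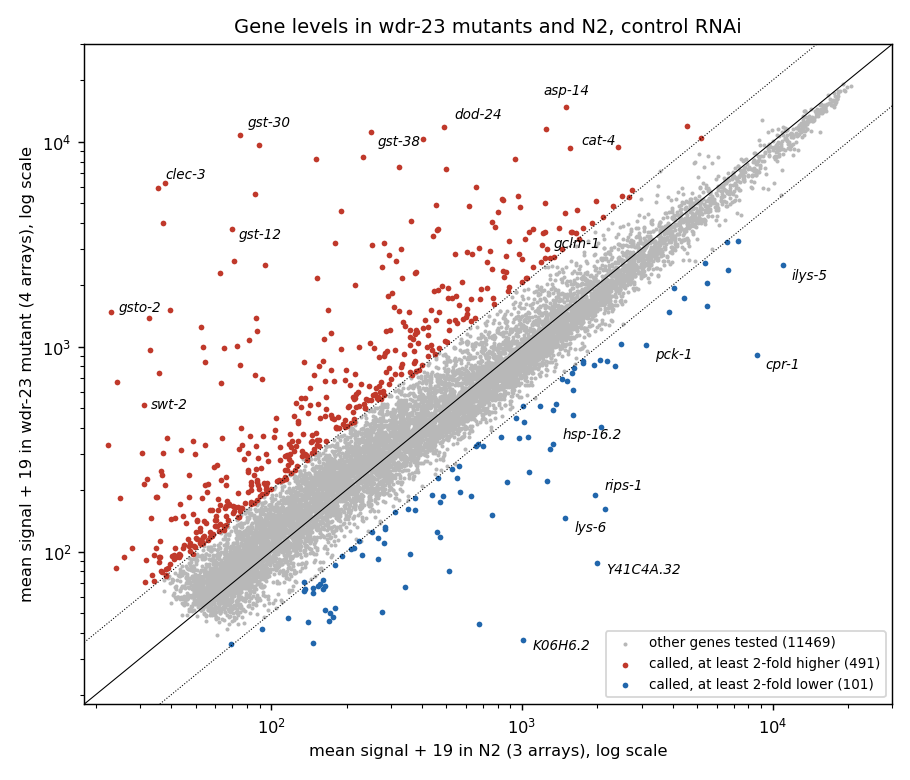
Mean signal of each tested gene in N2 (horizontal) and in the wdr-23 mutant (vertical), both plus 19 and on log scales. The solid line marks equal signals and the dotted lines 2-fold differences; the 491 red genes outnumber the 101 blue ones.

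Large rises were found at all signal levels. Genes were sorted into 5 equal bins by their mean log2 level over all 10 arrays, the value on which dim probe sets had been left out. From the dimmest bin to the brightest, 4.6%, 4.85%, 4.52%, 3.57% and 2.82% were called at least 2-fold higher, and the shares at least 2-fold lower ran from 0.663% in the brightest bin to 0.995% in the middle one. The median log2 change was 0.19 in the dimmest bin and -0.13 in the brightest as deposited, 0.02 and -0.09 after quantile normalization, and -0.01 and -0.33 after median centring. No test of a trend over the bins was made.

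**Figure D2:**
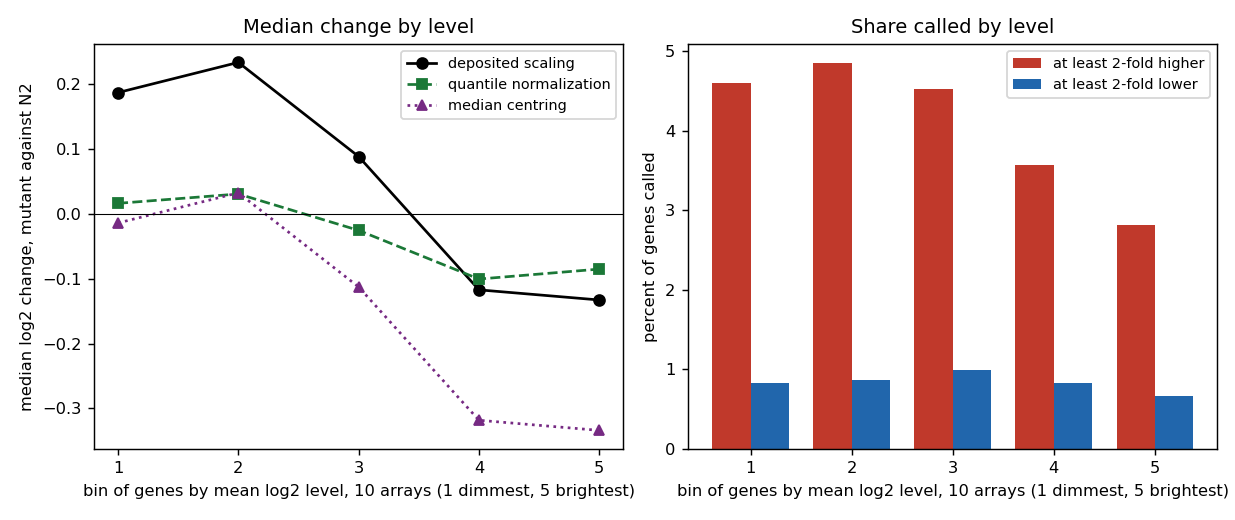
Left, the median log2 change, mutant against N2, in each of 5 bins of genes by mean log2 level over all 10 arrays under 3 ways of scaling the arrays. Right, the percent of genes in each bin called at least 2-fold higher (red) or lower (blue); the red bars lie between 2.82% and 4.85% and above the blue bar in every bin.

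At the extreme, 9 genes lay below 33.3, the level of the cut on dim probe sets, on every N2 array and above 500 on every mutant array. They were the glutathione S-transferase gene gsto-2, the lectin genes clec-2, clec-3, clec-17 and clec-163, the UDP-glucuronosyltransferase gene ugt-38, the mucin-like gene mul-1, and W06H8.2 and T19D12.3, for which no role is given here. W06H8.2 read 23.8, 23.1 and 8.93 in N2 and 6202, 6793, 6844 and 5348 in the mutant. T19D12.3 read 17.9, 21.8 and 14.2 in N2 and 3518, 3935, 4952 and 3575 in the mutant. One gene did the reverse: K06H6.2 read 815, 1189.7 and 975 in N2 and 24.5, 32.4, 8.57 and 7.15 in the mutant. No strain's range touched the other's in these 3 genes. The cut was applied to the mean log2 level over all 10 arrays, most of which held the mutant. A gene high only in the mutant therefore passed it more easily than a gene high only in N2, so the counts of 9 and 1 are not on equal terms.

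The wdr-23 transcript itself was higher in the mutant. Its 1 probe set read 1026, 846 and 725 in N2 and 3304, 2784, 3858 and 3091 in the mutant, changing by 1.89 in log2 (SE 0.13, adjusted p = 1.14e-08), and the strains did not overlap. The position of its probes relative to the deletion is not given, so this signal checks nothing about the labels. The brightest of the 3 probe sets of skn-1 read 534, 413 and 417 in N2 and 499, 469.6, 381 and 547 in the mutant, a log2 change of 0.06 (adjusted p = 0.798), with overlapping ranges. The other skn-1 probe sets are not given here. Of the ligase genes, cul-4 had a log2 change of -0.15 and the RING-finger gene rbx-1 one of -0.24 (adjusted p = 0.518 and 0.166), and ddb-1 was at -0.398 (adjusted p = 0.042) with overlapping ranges. Leaving out N2 replicate 2 or 3, or mutant replicate 1, 2 or 4, ended the call of ddb-1 (adjusted p = 0.0725 to 0.138), and rbx-1 became called without mutant replicate 2 (-0.34, adjusted p = 0.0434) and with median centring (-0.44). In the wider list of 32 SKN-1 regulators, 4 were called higher and 6 lower, shares of 12.5% and 18.8% beside 18.8% and 10.2% over all genes.

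Glutathione S-transferases, which join glutathione to reactive molecules, changed in large numbers. Of 42 tested, 28 were called higher and 2 lower, and 22 rose at least 2-fold (52.4%, against 4.07% of all genes). Under all 3 scalings 25 stayed higher and 2 lower. Their median log2 change was 1.24 (1.09 and 1.04 under quantile normalization and median centring), beside 0.03 over all genes.

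The family did not move as one block. The gst-30 gene read 84.04, 33.02 and 52.2 in N2 and 10381, 10476, 11384 and 10979 in the mutant, changing by 7.22 in log2 (SE 0.16, adjusted p = 2.23e-15). The gst-40 gene read 65.3, 71.8 and 74.97 in N2 and 9021, 10055, 9588 and 9631 in the mutant, a log2 change of 6.74. Both were high on every mutant array and low on every N2 array. On the log2 scale gst-12 changed by 5.76, gst-38 by 5.48, gst-16 by 4.73 and gst-31 by 3.98. A smaller rise was that of gst-7, which read 2446, 2263 and 2463 in N2 and 8984, 9112, 10341 and 9312 in the mutant, changing by 1.97 in log2 (SE 0.10, adjusted p = 2.03e-10). At the other end gst-19 read 122, 113 and 128 in N2 and 43.6, 23.5, 7.08 and 31.1 in the mutant, changing by -1.69 in log2 (SE 0.24, adjusted p = 7.39e-05), and gst-9 fell as well, by 0.83 on the log2 scale. Those 2 genes were lower on every mutant array than on any N2 array. Between the extremes, gst-11, gst-23, gst-26, gst-27 and the kappa-class genes gstk-1 and gstk-2 had changes of -0.19 to 0.19 and were not called, although gst-26 and gstk-1 were called lower with median centring (-0.34 and -0.39). Some probe sets of the family can pick up more than 1 member. Of the 35 genes read by a plain probe set 20 rose at least 2-fold, and of the 7 read by a probe set marked as shared 2 did.

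Genes for enzymes that make and recharge glutathione were higher. A list of 17 genes of glutathione synthesis, recycling and export was put together after their values had been seen, so its count is only a description. Of these 11 were called higher and 1 lower, all 12 by at least 2-fold (64.7% and 5.88%, against 4.07% and 0.837% of all genes). All 12 stayed called under the 3 scalings. The first enzyme of synthesis, made of a catalytic and a modifier subunit, is encoded by gcs-1 and gclm-1. The gcs-1 gene read 1105, 877 and 849 in N2 and 5652, 5200.3, 5193 and 5735 in the mutant, changing by 2.51 in log2 (SE 0.11, adjusted p = 2.54e-11). The gclm-1 gene read 1095, 1260.1 and 1287 in N2 and 3952, 3688, 3558 and 3201 in the mutant, changing by 1.55 in log2 (SE 0.11, adjusted p = 1.14e-08). The catalytic subunit thus changed by more than the modifier on this array. Glutathione synthetase, gss-1, followed with 1188, 1125 and 1236 in N2 and 2907, 3094, 3248 and 3219 in the mutant and a log2 change of 1.38.

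Recycling of oxidised glutathione needs NADPH, and the genes on that route were higher too. Glutathione reductase, gsr-1, read 4881, 4988 and 5615 in N2 and 9004, 11109, 10421 and 11299 in the mutant, changing by 1.01 in log2 (SE 0.10, adjusted p = 8.1e-07). The pentose phosphate enzymes that make NADPH, glucose-6-phosphate dehydrogenase (gspd-1) and T25B9.9, a 6-phosphogluconate dehydrogenase, changed by 1.19 and 1.12. The NAD kinase gene nadk-1, whose product makes NADP, read 298, 329.99 and 334 in N2 and 854, 909, 911 and 952 in the mutant, a log2 change of 1.45. All 4 genes had every mutant array above every N2 array. Export also changed: mrp-1, an ABC transporter that carries glutathione conjugates, read 693, 576 and 563 in N2 and 3322, 2152, 2983 and 2780.4 in the mutant, changing by 2.16 in log2 (SE 0.14, adjusted p = 4.06e-09), and hmt-1, an ABC transporter needed for heavy metal tolerance, changed by 1.42. The glutathione peroxidase genes split, with gpx-1 (1.498) and gpx-2 (1.72) higher and gpx-3 lower (-1.45). A wider list of 20 genes for glutathione synthesis and NADPH supply had 8 higher and 0 lower (40% higher and 0% lower, against 18.8% and 10.2% of all genes), with a median of 0.06 as deposited and -0.14 when centred.

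**Figure D3:**
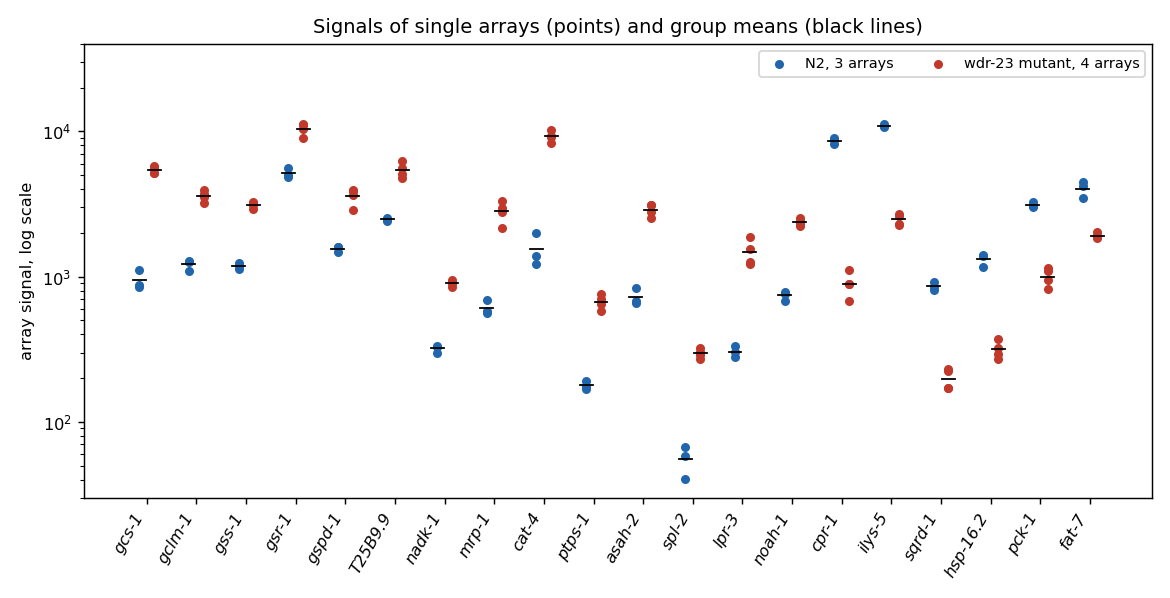
Signal of every array, on a log scale, for 20 genes of glutathione synthesis and export, tetrahydrobiopterin, sphingolipids, apical matrix, and intestinal and metabolic genes. Blue points are the 3 N2 arrays, red points the 4 mutant arrays and black lines the group means; in each gene shown the strains do not overlap.

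Genes commonly used as readouts of SKN-1 in earlier worm work all changed one way: 13 of 13 were called at least 2-fold higher (100%, against 4.07% of all genes), under every scaling, with log2 changes from 1.8003 (ptps-1) to 7.22 (gst-30) and a median of 3.21. Because such readouts were chosen in earlier studies for rising with SKN-1, their direction is no independent evidence. The list was also chosen with earlier results of these data known. The reporter gene gst-4 read 1170.4, 1174 and 1351 in N2 and 9975, 11672, 12312 and 12288 in the mutant. The nitrilase gene nit-1 read 829.8, 806 and 724 in N2 and 4163, 4785, 4293 and 4809 in the mutant. The short-chain dehydrogenase gene dhs-8 read 38.2, 26.98 and 37.7 in N2 and 1023, 534, 1171 and 1169 in the mutant, and mutant replicate 2 was lower than the other mutant arrays and above all N2 arrays.

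In other detoxification families calls went both ways. Of 53 UDP-glucuronosyltransferases, which attach sugar groups, 17 were called higher and 14 lower (32.1% higher and 26.4% lower, against 18.8% and 10.2% of all genes), and 15 and 13 stayed called under all scalings. Their median log2 change of 0.15 changed sign to -0.01 and -0.05 with quantile normalization and median centring. The large changes were rises: 13 were at least 2-fold higher (24.5%, against 4.07%) and 2 at least 2-fold lower (3.77%, against 0.837%). The leading rise, ugt-38, read 20.6, 5.93 and 15.2 in N2 and 1036, 925, 1029.8 and 799.5 in the mutant, and the leading fall, ugt-62, read 2086, 1691 and 1970.3 in N2 and 739, 904, 695 and 847 in the mutant, changing by -1.25 in log2 (SE 0.12, adjusted p = 7.03e-07).

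Of 30 short-chain dehydrogenases 8 were called higher and 4 lower (26.7% higher and 13.3% lower, against 18.8% and 10.2% of all genes), shares not far from those of all genes. Among them dhs-9 rose from 953 ± 85.9 (SD, n = 3) to 2817 ± 57.7 (SD, n = 4) while dhs-25 fell by 1.25 on the log2 scale. Aldehyde dehydrogenases had 3 of 12 higher and 3 lower (25% higher and 25% lower, against 18.8% and 10.2% of all genes). Of these alh-5 read 118, 158 and 155 in N2 and 1078, 983, 1062 and 1177 in the mutant, changing by 2.75 in log2 (SE 0.14, adjusted p = 1.51e-10), and alh-10 changed by 1.44. Of 42 cytochrome P450 genes 7 were called higher and 8 lower (16.7% higher and 19% lower, against 18.8% and 10.2% of all genes), so rises were no more frequent than among all genes, and 2 were at least 2-fold in each direction. Flavin-containing monooxygenases split as well: fmo-1 rose (0.93), and fmo-2, known for its induction by starvation and low oxygen, read 159, 165 and 159.6 in N2 and 8.22, 58.5, 39.6 and 30.1 in the mutant, changing by -1.86 in log2 (SE 0.26, adjusted p = 5.91e-05). ABC transporters had 15 of 50 higher and 4 lower (30% higher and 8% lower, against 18.8% and 10.2% of all genes). Beside mrp-1, the P-glycoprotein genes pgp-3 and pgp-4, which are neighbours on the X chromosome, changed by 1.21 and 1.64.

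Tetrahydrobiopterin is the cofactor used to make serotonin and dopamine. Of 7 tested genes that make or use it, a list added after values had been seen, 3 were called higher and 1 lower (42.9% higher and 14.3% lower, against 18.8% and 10.2% of all genes). GTP cyclohydrolase, cat-4, the first enzyme, read 1223, 1386 and 2004 in N2 and 8370.3, 9322, 9194 and 10184 in the mutant, changing by 2.61 in log2 (SE 0.15, adjusted p = 1.18e-09). The next enzyme, ptps-1, read 191, 177 and 168 in N2 and 696, 759.97, 652 and 579 in the mutant, changing by 1.8003 in log2 (SE 0.14, adjusted p = 4.28e-08). Each strain's arrays stayed clear of the other's in both genes. Of the enzymes that use or recycle the cofactor, pcbd-1 fell by 0.73 on the log2 scale. The aromatic amino acid decarboxylase gene bas-1, which finishes both transmitters, read 578, 653 and 528 in N2 and 1406, 1561, 1558 and 1505 in the mutant, a change of 1.34. Among 18 tested genes of transmitter synthesis and transport, 4 were called higher, all at least 2-fold, and 1 lower (22.2% higher and 5.56% lower, against 18.8% and 10.2% of all genes). The remaining 2 that rose were the vesicular monoamine transporter cat-1 (1.02) and the GABA transporter snf-11 (1.01), and tdc-1, tyrosine decarboxylase, fell by 0.53 on the log2 scale, a call that ended without N2 replicate 1 (adjusted p = 0.0546).

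Some genes that break down ceramide, the core of sphingolipids, were also higher. Both acid ceramidase genes rose. Of these asah-1 read 169, 159 and 136 in N2 and 1136, 1272, 1158 and 997 in the mutant, changing by 2.74 in log2 (SE 0.13, adjusted p = 5.9e-11), and asah-2 changed by 1.97. The sphingosine phosphate lyase gene spl-2, which acts at the end of the route, read 40.2, 67.2 and 58.1 in N2 and 272, 290.4, 302 and 324 in the mutant, changing by 2.11 in log2 (SE 0.15, adjusted p = 1.65e-08). No mutant array reached down to N2 in these 3 genes. Another sphingosine phosphate lyase gene, one of the 10 intestinal markers described below, was not called. Of 20 sphingolipid genes, a list added after values had been seen, 7 were called higher and 0 lower (35% higher and 0% lower, against 18.8% and 10.2% of all genes), and the median of 0.13 turned to -0.07 with median centring.

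Several genes for uptake and transport rose. The sugar transporter gene swt-2 read 9.86, 11.5 and 14.7 in N2 and 543, 622, 369 and 455 in the mutant, changing by 4.03 in log2 (SE 0.17, adjusted p = 1.54e-11). The amino acid transporter gene aat-1 read 129, 154 and 182 in N2 and 874, 582, 734 and 816 in the mutant, and the amino acid transporter gene slc-36.3 changed by 2.66. The intestinal dipeptide transporter gene pept-1 read 2064, 1704 and 1889 in N2 and 3282, 3999, 4118 and 4606 in the mutant, changing by 1.07 in log2 (SE 0.14, adjusted p = 2.36e-05). Of 32 amino acid and sugar transporters, a list added after values had been seen, 11 were called higher and 3 lower (34.4% higher and 9.38% lower, against 18.8% and 10.2% of all genes). Among 41 genes of iron, heme and metals, 10 were higher and 5 lower (24.4% higher, against 18.8% of all genes), and 6 rose at least 2-fold. The heme-related genes hrg-10, hrg-3, hrg-7 and hrg-1 changed by 1.76, 1.16, 1.03 and 1.02, and the iron exporter gene fpn-1.1 by 1.01, while its relative fpn-1.2 was at -0.97. The metallothionein gene mtl-2 read 10446, 11504 and 11474 in N2 and 10661, 11225, 10194 and 9573 in the mutant, a log2 change of -0.098 (adjusted p = 0.419) that became a call at -0.30 with median centring. Of 23 genes of osmolyte synthesis and water transport, 10 were higher and 0 lower (43.5% higher and 0% lower, against 18.8% and 10.2% of all genes), led by hmit-1.1, which encodes an inositol transporter (2.002), and the aquaporin gene aqp-11 (1.76). The gene for glycerol-3-phosphate dehydrogenase gpdh-1, the usual marker of osmotic stress, read 129.8, 137 and 121 in N2 and 135, 133, 154 and 192 in the mutant, which overlapped (log2 change 0.204, adjusted p = 0.348).

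Secreted proteins linked to the intestine and to pathogen responses divided into strong rises and strong falls. The array holds 220 C-type lectins, of which 95 were bright enough to test: 29 were called higher and 19 lower (30.5% higher and 20% lower, against 18.8% and 10.2% of all genes), and 15 and 4 by at least 2-fold (15.8% and 4.21%, against 4.07% and 0.837%). The median over these lectins was 0.19, and -0.01 when arrays were centred. The clec-3 gene read 20.5, 7.21 and 21.6 in N2 and 5559, 5625, 6551 and 5983 in the mutant, changing by 7.42 in log2 (SE 0.16, adjusted p = 1.29e-15). Its neighbour clec-2 read 12.7, 12.3 and 15.96 in N2 and 1376, 1404, 1255 and 1426 in the mutant. On the lower side clec-10 read 427, 417 and 469 in N2 and 109, 83.2, 128 and 103 in the mutant, changing by -1.88 in log2 (SE 0.15, adjusted p = 4.99e-08), and clec-4 fell by 1.45 on the log2 scale.

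The dod genes, first named for lying downstream of the insulin-regulated factor DAF-16, split in the same way. Both dod-24 and dod-17, members of a family of CUB-like secreted proteins, rose, and dod-24 read 515, 395 and 495 in N2 and 10869, 11869, 12654 and 11958 in the mutant, changing by 4.61 in log2 (SE 0.12, adjusted p = 2.9e-14). C32H11.4 and C32H11.3, which lie near dod-24 on chromosome IV, changed by 4.68 and 5.196. Yet dod-22 was lower, at 194, 227 and 167 in N2 and 74.8, 129, 57.3 and 80.4 in the mutant, changing by -1.08 in log2 (SE 0.19, adjusted p = 0.000652). The infection-response genes irg-3 (2.71) and irg-5 (2.08) rose, and irg-8 fell by 0.93 on the log2 scale. C17H12.8 also fell: it read 4955, 4348 and 3951 in N2 and 1524, 1900.1, 1818 and 1626 in the mutant, a change of -1.35.

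Of 11 lysozymes 5 were called lower and 2 higher (18.2% higher and 45.5% lower, against 18.8% and 10.2% of all genes), in the same numbers under all scalings. The lys-6 gene read 1432, 1389 and 1587 in N2 and 120.3, 151, 115 and 122 in the mutant, changing by -3.35 in log2 (SE 0.12, adjusted p = 1.84e-12). The invertebrate-type lysozyme gene ilys-5 read 10969.5, 11196 and 10724 in N2 and 2295, 2689, 2633 and 2284 in the mutant, changing by -2.14 in log2 (SE 0.10, adjusted p = 5.42e-11), and lys-4 fell by 0.97 on the log2 scale. On the other side, lys-3 and lys-8 were higher, by 1.32 and 0.68. Caenopores, small membrane-breaking proteins, had 6 of 15 higher and 3 lower (40% higher and 20% lower, against 18.8% and 10.2% of all genes), with spp-12 at 293, 276 and 367 in N2 and 2890.4, 2957, 2846 and 3254 in the mutant and spp-4 at 1122, 1328 and 1387 in N2 and 294, 315, 333 and 246 in the mutant, so the family held a rise of 3.19 and a fall of -2.04 side by side. Aspartyl and cathepsin proteases of the gut had 7 of 22 lower and 3 higher (13.6% higher and 31.8% lower, against 18.8% and 10.2% of all genes). The cathepsin B-like gene cpr-1 read 8980.01, 8155 and 8669.8 in N2 and 894, 674, 1112 and 894 in the mutant, changing by -3.26 in log2 (SE 0.14, adjusted p = 1.27e-11), and its relative cpr-4 changed by -1.49. In the other direction the aspartyl protease gene asp-14 read 1417, 1527 and 1479 in N2 and 13112, 14406, 15945 and 15384 in the mutant, changing by 3.299 in log2 (SE 0.10, adjusted p = 1.17e-13).

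Several genes of glucose and fat metabolism were lower. Phosphoenolpyruvate carboxykinase, pck-1, the entry step of gluconeogenesis, read 3261, 3025 and 3041 in N2 and 1148, 815, 954 and 1086 in the mutant, changing by -1.63 in log2 (SE 0.13, adjusted p = 5.57e-08). Fructose-1,6-bisphosphatase, fbp-1, a later step, changed by -0.58. Of 21 genes of glycolysis and gluconeogenesis 7 were called lower and 1 higher (4.76% higher and 33.3% lower, against 18.8% and 10.2% of all genes), 6 and 0 under all scalings. The 3 genes for the desaturases that place the first double bond in a fatty acid all fell. The fat-7 gene read 3473, 4456 and 4184 in N2 and 1841, 1897, 1862 and 2025 in the mutant, changing by -1.07 in log2 (SE 0.11, adjusted p = 9.74e-07), with fat-6 at -1.15 and fat-5 at -1.38. These 3 were the only ones of 15 desaturases and elongases past 2-fold, and in all 3 of the list were called higher and 4 lower (20% higher and 26.7% lower, against 18.8% and 10.2% of all genes). The acyl-CoA synthetase gene acs-2, a mark of fasting fat use, read 1306, 1110.5 and 1056 in N2 and 356, 365, 699 and 548 in the mutant, changing by -1.25 in log2 (SE 0.19, adjusted p = 0.000119). In beta-oxidation 10 of 36 genes were lower and 7 higher (19.4% higher and 27.8% lower, against 18.8% and 10.2% of all genes), with ech-9 at -1.897, acdh-2 at -1.25 and, in the other direction, acdh-4 at 1.02. The glycogen synthase gene gsy-1 fell by 0.71 on the log2 scale. In methionine and propionate metabolism 8 of 26 were lower and 2 higher (7.69% higher and 30.8% lower, against 18.8% and 10.2% of all genes). The 2 higher were the S-adenosylmethionine synthetase genes sams-1 (0.71) and sams-5 (0.85).

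Genes that respond to hydrogen sulfide and low oxygen included large falls. The sulfide oxidoreductase gene sqrd-1 read 806, 848 and 916 in N2 and 172, 223, 229 and 170.4 in the mutant, changing by -2.02 in log2 (SE 0.13, adjusted p = 6.19e-09). The persulfide dioxygenase gene ethe-1 changed by -0.57 and the cysteine dioxygenase gene cdo-1 by -0.71. The methyltransferase-like gene rips-1 read 2112, 2010.1 and 1716 in N2 and 136, 133, 166 and 240.01 in the mutant, changing by -3.42 in log2 (SE 0.17, adjusted p = 1.51e-10). Its neighbour R08E5.1, of the same kind, changed by -1.66. Other genes of sulfide and cysteine metabolism went up: the cystathionine gamma-lyase gene cth-2 read 3347, 3680.02 and 3592 in N2 and 5806, 7777, 6831 and 8172 in the mutant, changing by 0.999 in log2 (SE 0.11, adjusted p = 5.34e-06), and the cysteine synthase relatives cysl-1 and cysl-2 changed by 0.58 and 0.96. The cysteine synthase relatives did not all rise: another cysl gene of the list changed by -0.85 (adjusted p = 0.000188), with every mutant array below N2. Over the 15 tested genes of this list 4 were called higher and 4 lower (26.7% higher and 26.7% lower, against 18.8% and 10.2% of all genes).

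Stress chaperones were lower or not called. Of 11 inducible and small heat shock genes, 5 were lower and 0 higher (0% higher and 45.5% lower, against 18.8% and 10.2% of all genes), and the same counts held under all scalings. The hsp-70 gene read 1069.96, 1256 and 1398 in N2 and 179, 232, 223 and 172 in the mutant, changing by -2.52 in log2 (SE 0.15, adjusted p = 1.04e-09). The paired genes hsp-16.2 and hsp-16.41, neighbours on chromosome V, changed by -2.003 and -2.14. In the endoplasmic reticulum 5 of 19 chaperone and sensor genes were lower and 0 higher (0% higher and 26.3% lower, against 18.8% and 10.2% of all genes). The BiP gene hsp-4 read 5343, 5339 and 5378 in N2 and 2845, 2319, 2619 and 2416 in the mutant, changing by -1.07 in log2 (SE 0.10, adjusted p = 7.85e-07). 

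Lists of basic protein machinery had more genes called lower with median centring than as deposited. Of 74 cytosolic ribosomal protein genes limma called 0, with 1 higher and 3 lower at an unadjusted p under 0.05. Their median log2 change was -0.14, -0.02 with quantile normalization and -0.34 with median centring, under which 59 of the 74 were called lower (79.7%, against 29.4% of all genes under that scaling). Constitutive chaperones had 0 of 44 higher and 9 lower (0% higher and 20.5% lower, against 18.8% and 10.2% of all genes), and 32 lower with centring (72.7%). Of 57 mitochondrial ribosomal proteins 7 were lower (12.3%) and 39 with centring (68.4%), and of 35 translation factors 4 (11.4%) and 19 (54.3%). For 33 proteasome subunits the counts were 1 (3.03%) and 25 (75.8%). The 46 respiratory chain genes had 1 higher and 2 lower (2.17% and 4.35%), and 32 lower with centring (69.6%). Over all genes 10.2% were called lower as deposited and 29.4% with centring. How many of these genes are called lower thus depends on the scaling.

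Many genes of the surface coat and the moult rose. Of 17 collagens of furrows and body shape, 13 were called higher and 0 lower (76.5%, against 18.8% of all genes), and 12 under all scalings, with a median log2 change of 0.82 (0.84 and 0.62 under the other scalings). The furrow collagen gene dpy-7 read 290.4, 281 and 228 in N2 and 912, 981, 727 and 1018 in the mutant, changing by 1.696 in log2 (SE 0.14, adjusted p = 8.95e-08). The genes dpy-2, dpy-8, dpy-9 and dpy-3, also of the furrow set, changed by 1.504, 1.6003, 1.34 and 1.06. By contrast the 105 other cuticle collagens of the col series had 11 higher and 15 lower (10.5% higher and 14.3% lower, against 18.8% and 10.2% of all genes), with col-76 at 2.08 and col-156 at -1.37. The median of the col genes was -0.09 (-0.03 and -0.29 under the other scalings). The 9 epidermal markers include dpy-7 and other collagen genes, so they are not separate from these lists. Of the 9, 5 were called higher and 1 lower, with a median log2 change of 0.60. Their summed signal, in which bright genes weigh most, overlapped between strains, at 19691 to 25247 in N2 and 21060 to 23739 in the mutant. The part of epidermal content in these counts was not tested.

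Lipocalin-related genes, secreted proteins of the apical extracellular matrix that lines tubes and skin, were higher in 5 of 7 cases (71.4%, against 18.8% of all genes), all at least 2-fold, in a list added after values had been seen. The lpr-3 gene read 333, 279.6 and 301 in N2 and 1876, 1213, 1255 and 1548 in the mutant, changing by 2.19 in log2 (SE 0.15, adjusted p = 1.15e-08), and lpr-4, lpr-5 and lpr-6, its neighbours on X, changed by 2.05, 1.92 and 2.15. The zona pellucida matrix gene noah-1 read 763, 777 and 684 in N2 and 2428, 2302, 2542 and 2249 in the mutant, changing by 1.66 in log2 (SE 0.12, adjusted p = 1.95e-08). Its relative noah-2 changed by 1.6998. In both genes the mutant arrays lay wholly above N2. The matrix genes fbn-1 and let-653 changed by 1.61 and 1.47.

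Hedgehog-related and patched-related genes had 28 of 56 higher and 4 lower (50% higher and 7.14% lower, against 18.8% and 10.2% of all genes), 22 and 3 under all scalings, and a median log2 change of 0.49 (0.32 and 0.29 under quantile normalization and median centring). The warthog genes wrt-2, wrt-10 and wrt-1 changed by 2.06, 1.91 and 1.65, and the groundhog-like gene grl-14 read 30.9, 38.3 and 55.9 in N2 and 228, 274, 221 and 252 in the mutant, changing by 2.13 in log2 (SE 0.18, adjusted p = 9.7e-08). Astacin and ADAMTS proteases had 12 of 29 higher and 0 lower (41.4% higher and 0% lower, against 18.8% and 10.2% of all genes), of which 7 stayed higher under all scalings. In that group nas-25 read 22.99, 3.88 and 25.05 in N2 and 235, 229, 217 and 238 in the mutant, changing by 2.83 in log2 (SE 0.20, adjusted p = 1.48e-08), and nas-37, which is needed to shed the old cuticle, changed by 1.06. Among 22 moulting regulators 11 were higher and 1 lower (50% higher and 4.55% lower, against 18.8% and 10.2% of all genes). The protease inhibitor gene mlt-11 read 436, 256 and 384 in N2 and 1134, 1060.04, 863 and 1706 in the mutant, changing by 1.67 in log2 (SE 0.21, adjusted p = 2.11e-05), and qua-1, acn-1 and mlt-9 changed by 1.39, 1.22 and 1.24. The cycling gene mlt-10 was not called, at -0.05 (adjusted p = 0.787).

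Markers of cell types and of the adult stage were read next to these values. Over all genes 18.8% were called higher and 10.2% lower, so 2 higher or 1 lower among 10 or 11 markers is about the same share. Summed over 6 adult-stage markers, N2 arrays read 55368 to 70009 and mutant arrays 47156 to 48429. The 4 of these that were called were all yolk genes and all lower, led by vit-1 with 5849.6, 5911 and 4659 in N2 and 1900.1, 1438, 1783 and 1129.5 in the mutant, changing by -1.82 in log2 (SE 0.15, adjusted p = 1.07e-07). The 10 oocyte markers summed to 43229 to 49046 in N2 and 35659 to 42449 in the mutant, with 5 lower and 0 higher. The 11 other germ line markers summed to 20238 to 22600 in N2 and 18248 to 19840 in the mutant, also without overlap, with 1 lower, 0 higher and a median log2 change of -0.21. The 10 sperm markers overlapped, at 54092 to 66050 and 61718 to 66180, with 4 higher and 0 lower. Of the 9 epidermal markers, whose sums are given above, 5 were higher and 1 lower. Neuronal markers summed to 5998 to 6667 in N2 and 7499 to 8470 in the mutant, with 4 of 9 higher and 0 lower, and 1 marker of the class lay below 33.3 on all 7 arrays. Pharyngeal markers were at 7466 to 7982 and 8567 to 9272, with 2 of 10 higher. Intestinal markers, at 27968 to 29898 and 29539 to 32895, had 3 of 10 higher and 1 lower. Body-wall muscle markers overlapped at 51361 to 56490 and 51728 to 54689. The part of stage or of cell makeup in the changes described here was not tested.

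Germline genes differed by class. Of 32 oocyte, eggshell and maternal RNA-binding genes 20 were called lower and 0 higher (62.5%, against 10.2% of all genes), 17 under all scalings, with a median log2 change of -0.37 and 0 past 2-fold. The caveolin gene cav-1 read 670.2, 540.3 and 832 in N2 and 415, 491, 403 and 434 in the mutant, changing by -0.61 in log2 (SE 0.14, adjusted p = 0.00429). Its mutant arrays all lay below N2. Of 77 DNA replication and cell cycle genes 24 were lower and 2 higher (2.6% higher and 31.2% lower, against 18.8% and 10.2% of all genes), 18 and 2 under all scalings. The oocyte and germ line marker sums given above were lower in the mutant too. The oocyte markers are genes of the same kind as the 32 counted here, so their sum is no separate observation. The part of oocyte and germ line content in these counts was not tested. For orc-1 and orc-2, subunits of the origin recognition complex, the changes were -0.77 and -0.72, and one of the 2 that rose was the cell cycle inhibitor gene cki-1, at 199, 231 and 223 in N2 and 384, 545, 499.6 and 499 in the mutant, changing by 1.07 in log2 (SE 0.15, adjusted p = 5.33e-05). The 23 major sperm protein genes had 0 called by limma and 0 at an unadjusted p under 0.05 (median 0.02, and -0.18 with median centring, when 2 were called lower, while 4 were called higher with quantile normalization), while 35 of 62 other sperm genes were higher and 0 lower (56.5% higher and 0% lower, against 18.8% and 10.2% of all genes), 20 and 0 under all scalings, with a median of 0.42. The small nematode-specific sperm peptide gene nspd-9 read 329, 249.5 and 259 in N2 and 1172, 1259, 1085 and 1214 in the mutant, changing by 2.02 in log2 (SE 0.15, adjusted p = 2.98e-08). Histone genes had 14 of 35 higher and 3 lower (40% higher and 8.57% lower, against 18.8% and 10.2% of all genes), and their median of 0.14 turned to -0.07 with median centring.

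Many neuropeptide genes rose, most of them by less than 2-fold. Of 24 FLP peptide genes 20 were called higher and 0 lower (83.3%, against 18.8% of all genes), 14 under all scalings, with a median log2 change of 0.70 (0.61 and 0.50 under the other scalings) and 1 past 2-fold. That gene, flp-6, read 373, 456 and 427 in N2 and 957, 917, 958 and 952 in the mutant, changing by 1.15 in log2 (SE 0.11, adjusted p = 1.07e-06). The flp-1 gene read 733, 714 and 808 in N2 and 1206, 1505, 1368 and 1226 in the mutant, a change of 0.7997. Neither gene's strains overlapped. Of 49 NLP peptide genes 18 were higher and 3 lower (36.7% higher and 6.12% lower, against 18.8% and 10.2% of all genes), with nlp-99 at 1.17 and nlp-26 at -1.19, and of 19 insulin-like genes 5 were higher and 0 lower (26.3% higher and 0% lower, against 18.8% and 10.2% of all genes), led by ins-35 at 113, 75.996 and 109.9 in N2 and 297, 367, 384 and 378 in the mutant, changing by 1.67 in log2 (SE 0.18, adjusted p = 3.23e-06). The neuronal marker sum given above, 7499 to 8470 in the mutant against 5998 to 6667 in N2, moved in the same direction, and its part in these counts was not tested. Only 73 of the 1276 chemoreceptor genes passed the filter on dim signals, and 7 were higher and 1 lower (9.59% higher and 1.37% lower, against 18.8% and 10.2% of all genes). The strongest of them, srt-23, read 19.4, 23.5 and 31.8 in N2 and 318, 271, 291 and 301 in the mutant, changing by 2.85 in log2 (SE 0.15, adjusted p = 3.95e-10).

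Nuclear hormone receptors had 34 of 160 called higher and 5 lower (21.2% higher and 3.12% lower, against 18.8% and 10.2% of all genes), so rises were about as frequent as among all genes, with 19 and 5 under all scalings, and a median of 0.19 that turned to -0.01 with median centring. The nhr-61 gene read 131, 101 and 81.6 in N2 and 409, 423, 483 and 448 in the mutant, changing by 1.91 in log2 (SE 0.15, adjusted p = 3.66e-08), nhr-182 changed by 1.48, and the receptor gene nhr-114, with a role in nutrient response, was lower, by 0.66 on the log2 scale. Among 21 bZIP genes 6 were higher and 2 lower (28.6% higher and 9.52% lower, against 18.8% and 10.2% of all genes). The atf-4 gene, a regulator of amino acid and sulfur metabolism genes, read 1696, 1798 and 1699 in N2 and 3625, 4402, 3963 and 3171 in the mutant, changing by 1.11 in log2 (SE 0.11, adjusted p = 1.65e-06), and zip-10 and atf-8 changed by 1.14 and 1.08. In the ubiquitin system, cullins and Skp1-related genes had 11 of 29 lower and 1 higher (3.45% higher and 37.9% lower, against 18.8% and 10.2% of all genes). Among these skr-4 read 461, 551 and 618 in N2 and 220.3, 283, 247 and 217 in the mutant, changing by -1.11 in log2 (SE 0.16, adjusted p = 9.07e-05), and skr-7, skr-9 and skr-19 changed by -0.66, -0.76 and 0.63.

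Some genes that rose lay side by side. In gene order (assembly WBcel235, with at most 2 unmeasured genes between), 50 runs held 126 of the 491 genes at least 2-fold higher, 25.7% of them, and 3 runs held 6 of the 101 at least 2-fold lower, 5.94%. The lists differ in length, so each is read against its own share: of 442 measured genes at least 2-fold higher that had a measured next neighbour, that neighbour was at least 2-fold higher too in 76 (17.2%), against 3.99% over all 10864 such pairs. For 83 genes at least 2-fold lower it was 3 (3.61%), against 0.764%. One run of 6 was F01D5.1, F01D5.2, F01D5.3, F01D5.5, F01D5.6 and F01D5.7 on chromosome II, with changes from 1.16 to 4.06. Another was ugt-11, ugt-9, ugt-10, ugt-8, ugt-14 and ugt-13 on V, from 1.29 to 3.14. Within the second run ugt-13 read 434, 306 and 341 in N2 and 2193, 2036, 2388 and 2573 in the mutant, and ugt-10 read 34.8, 0.84 and 18.9 in N2 and 232, 309, 292 and 305 in the mutant, so both were higher on every mutant array. A run of 5 on IV held F55G11.2, mbug-1, dod-17, K10D11.2 and K10D11.3. Shorter runs included H20E11.1, H20E11.2 and H20E11.3 with C17H12.6 on IV, sdz-8 with C55A6.4, C55A6.6 and C55A6.7 on V, and the transferase triplets gst-12, gst-14 and gst-16, gst-6, gst-7 and gst-8, and gst-29, gst-31 and gst-39, all on II. Neighbouring members of 1 family can share sequence and so probe signal, which was not tested. The 3 lower runs were the pairs K06H6.1 with K06H6.2, R08E5.1 with rips-1, and hsp-16.2 with hsp-16.41.

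**Figure D4:**
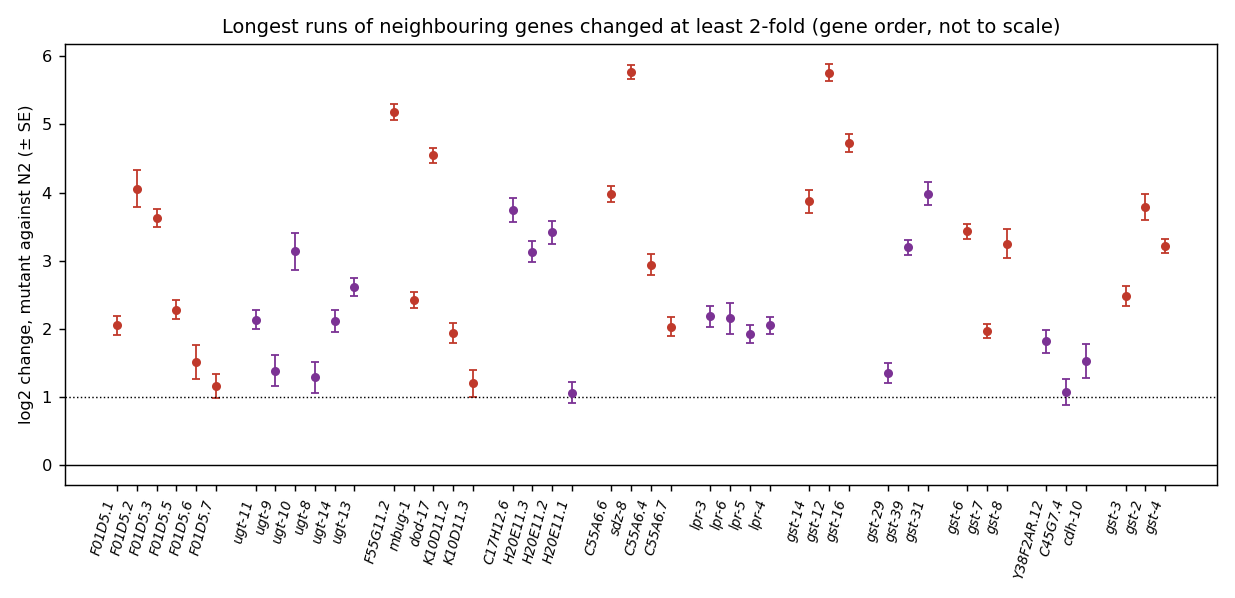
Log2 change, mutant against N2, with its standard error, for the genes of 11 of the longest runs of neighbours called at least 2-fold higher, in gene order with gaps between runs. Only some of the runs of 3 genes are shown, taken by chromosome and name, and the others are equally long. The dotted line is 2-fold; sizes differ widely inside a run, as from 1.16 to 4.06 among the F01D5 genes.

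By chromosome the share of tested genes at least 2-fold higher was 2.42% on I, 4.53% on II, 2.19% on III, 4.43% on IV, 5.56% on V and 5.1% on X, and the share at least 2-fold lower ran from 0.403% on I to 1.53% on V. Clusters of related genes contribute several members each to these shares, so the genes are not independent.

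**Figure D5:**
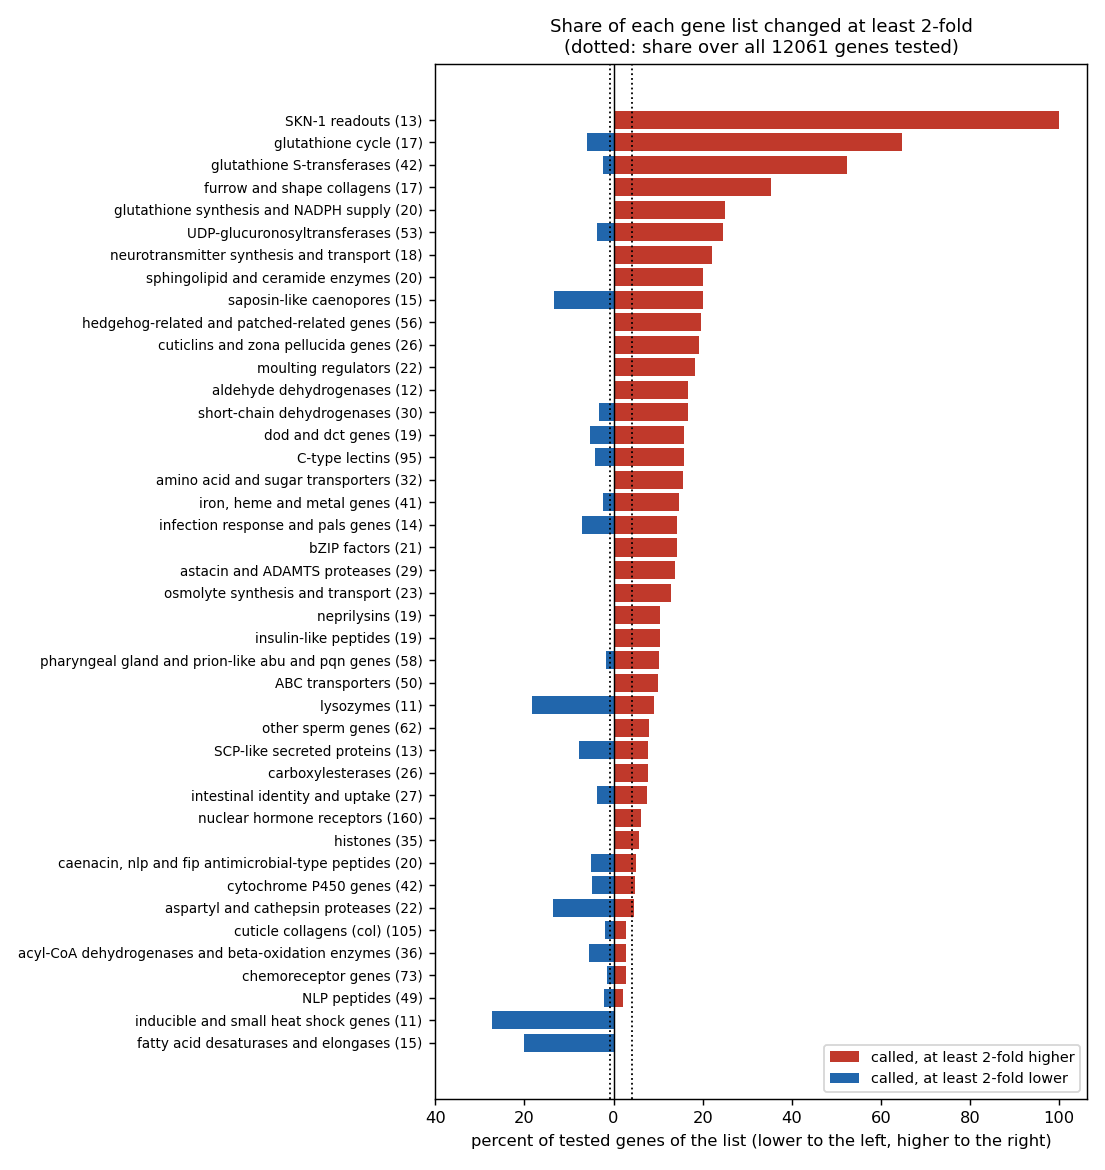
Percent of the tested genes of each list called at least 2-fold higher (red, to the right) or lower (blue, to the left), for lists with at least 10 tested genes and at least 2 such calls; the number tested is in brackets. Dotted lines mark 4.07% and 0.837%, the shares over all genes. Lists share members, and those for the glutathione cycle, sphingolipids, neprilysins and transporters were added after values had been seen.

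Genes with no role given here were among the large falls. Y41C4A.32 read 2299, 1684 and 1947 in N2 and 65.3, 65.995, 62.3 and 80.97 in the mutant, changing by -4.503 in log2 (SE 0.14, adjusted p = 1.6e-13). The gene cTel55X.1, whose name places it at an end of X, read 629.7, 663 and 677 in N2 and 39.01, 13.5, 38.8 and 9.87 in the mutant, a change of -4.003. Not 1 mutant array of either gene reached the lowest N2 array. On the log2 scale warf-1 changed by -3.74, K06H6.1 by -2.495 and C30G12.2 by -2.67. Of 2428 genes with several tested probe sets, 91 had a probe set called at least 2-fold, and in 88 of those all probe sets moved in 1 direction and in 75 all were called. For 3 genes, C47E12.3, F58D5.2 and cdc-14, different probe sets were called in opposite directions, so no direction is given for them.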

How the data were processed

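Array intensity was deposited as MAS5 signals on a linear scale, per the submitters' processing notes, with no version. The genome build behind the probe sets is not given in the sources used here. The mean of an array, with 2% trimmed from each end, was 500.11 to 500.14, so the authors had scaled every array to one level. A platform annotation named 1 gene for 20766 probe sets (17118 genes), several for 887 and none for 895, and no gene was named from a probe set with several. The reference gene table is of assembly WBcel235 and was used for names and gene order only.

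From there, log2(signal + 19) was modelled in limma 3.58.1 (R 4.3.3; lmFit, eBayes with an intensity trend, two-sided) on all 10 arrays in 3 groups, 16.4 total degrees of freedom, and the contrast of mutant with N2 was taken. The added 19 is the rounded 20th percentile of the signals. Leaving out 6765 dim probe sets, the lowest 30% by mean, left 15783 to test, with Benjamini-Hochberg adjustment over all of them. The number of arrays limits the precision; the median standard error was 0.152. Replicate numbers did not pair the arrays, so no block was used. Tested on simulated data of these group sizes, the fit recovered 26.7% of rises of 0.5 (log2), 88% of rises of 1, 84.7% of falls of 1 and 100% of rises of 2, with 3.85% of calls false. Each size was planted in 150 probe sets over 3 runs, none of them among the dimmest. The share changed was thus far smaller than the share called on the real arrays, so these rates need not hold there. Genes that vary together were not simulated.

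The comparison and all gene lists were chosen with earlier results of these data known, 7 of the 88 lists were added and some name patterns corrected after values were seen. Named genes were the 30 largest rises and 25 largest falls, up to 3 rises and 3 falls of each list, SKN-1 readouts, wdr-23 and skn-1, genes of the longest neighbour runs and those whose probe sets were called in opposite directions. Of the 212 genes named, 30 lie outside the rule and were chosen after their values were seen. Alternatives covered scaling, pseudocount, filter, variance model, the 7 arrays alone, a replicate block, probe set type and leaving out each array. Promoter sequences were not used here. Summaries used python 3.11.15, numpy 2.4.6, pandas 2.3.3 and matplotlib 3.10.9.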

Additional observations from a re-analysis of the deposited data

Results flagged for a closer look

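In the 212 genes named in the text, 1 of the 4 mutant arrays stood apart from the other 3 in 9 genes, on the log2 scale and by a test of the gap to the nearest array over the range of the group that chance passes in about 1 in 20 groups. The 9 of 212 are no larger a share than that. In gsto-2 mutant replicate 3 was lowest, at 1245 against 1524 to 1536 (gap over range 0.961), and in F55G11.2 the same replicate was highest, at 9691 against 7867 to 8148 (0.832). Mutant replicate 4 was lowest in K06H6.1 at 10.8 against 38.2 to 39.3 (0.972), lowest in acdh-2 at 321 against 434 to 446 (0.919), and highest in slc-36.3 at 396 against 234 to 244 (0.922). Replicate 2 was highest in nlp-99 at 768 against 593 to 599 (0.958) and in ethe-1 at 246 against 180.2 to 187 (0.877), and lowest in flp-6 at 917 against 952 to 958 (0.851). Replicate 1 was lowest in ins-35 at 297 against 367 to 384 (0.83). Without that array each of these genes was still called in the same direction.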

How the results depend on the processing

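Of 18 other settings, most left the counts of called probe sets within 1.5 times of 2754 higher and 1590 lower, and of 583 and 131 at least 2-fold. Centring each array on its median gave 1671 higher and 4613 lower, and 217 at least 2-fold lower. Quantile normalization gave 1942 higher and 1962 lower, so the split between the directions depends on the scaling. Without suffixed probe sets, which can read several genes, 870 were called lower out of fewer tested. Leaving out each array in turn gave 1958 to 2583 higher and 890 to 1557 lower, and 571 to 671 at least 2-fold higher, with the count at least 2-fold lower within 1.5 times of 131. The low ends of the first 2 ranges came without N2 replicate 1, and the cause was not tested. With the replicate number as a block 2471 were higher and 1344 lower; the numbers did not pair the arrays (residual correlations of 0.04, 0.05 and -0.16), and among the genes named in the text it ended only the call of ddb-1. No gene named in the text reversed, and all called ones except ddb-1 and tdc-1 stayed called in each of the settings where they were tested. Median centring lowered all 88 list medians.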

Other observations

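Several further families held single strong members. Among 12 galectins, sugar-binding proteins, lec-7 rose by 2.91 on the log2 scale while 1 other was called higher and 1 lower (16.7% and 8.33%, against 18.8% and 10.2% of all genes). Of 19 neprilysins, membrane-bound peptidases put in a list after values had been seen, 7 were called higher and 0 lower (36.8% and 0%), with nep-22 at 1.81. Of 10 bus genes, which shape the sugar coat that bacteria bind, also listed after values had been seen, 8 were higher and 0 lower (80% and 0%), all but 1 by less than 2-fold. In the list of pharyngeal gland and prion-like genes 12 of 58 were higher and 1 lower (20.7% and 1.72%, so rises were about as frequent as among all genes), from phat-5 (1.90) to phat-3 (-1.27). Of the muscle genes, 8 of 40 sarcomere and attachment genes were higher and 0 lower (20% and 0%, the first close to the 18.8% of all genes), 0 of them past 2-fold, and the median of 0.07 turned to -0.13 with median centring.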
